A study of Mus musculus with 12 samples.

Results

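Haem breakdown and iron handling were followed through 9 genes, Hmox1, Slc48a1, Blvra, Blvrb, Slc40a1, Slc11a1, Fth1, Ftl1 and Tfrc, out of 24138 genes in each deposited table. The genes were chosen by name, each had a single row in every table, and all 9 were tested by the authors in every comparison. The RNA came from C57BL/6 mouse embryos, from cells of the blood-forming clusters that sit on the inner wall of the aorta in the aorta-gonad-mesonephros region (AGM). Cells without SSEA-1 and with CD31 and CD117 on their surface were sorted. The 12 samples form 4 groups of 3. These are S/G2/M cells at E11.5 (Fucci Green animals, mAG+), G1 cells at E11.5 (Fucci Red animals, mKO2+), S/G2/M cells at E10.5 (Fucci Green, mAG+) and G1 cells at E10.5 (Fucci Red, mKO2+). Fucci reporters are fluorescent proteins that are stable only in part of the cell cycle. Phase and reporter animal coincide, so their effects cannot be told apart. How many embryos were pooled for a sample is not stated in the labels.

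Haem oxygenases open the haem ring and release iron, carbon monoxide and biliverdin, and biliverdin reductases turn biliverdin into bilirubin. The freed iron is stored inside the ferritin shell, which is built from heavy and light chains, or leaves the cell through ferroportin. Cells take up iron from transferrin through the transferrin receptor. Macrophages that clear red cells are known for high haem oxygenase and ferroportin, and red cell precursors for high transferrin receptor.

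Several of these RNAs carry iron-responsive elements, hairpins that the iron regulatory proteins bind when the cell is short of iron. Binding near the start of an mRNA blocks its translation, whereas binding behind the coding part protects the mRNA from decay. The elements are shown because Tfrc is a gene whose RNA level this system is known to set, while ferritin and ferroportin protein can change without their RNA. In the GENCODE M21 transcripts (GRCm38, mm10), hairpins with the loop CAGTGN, 5 paired bases on each side (G-T pairs allowed) and a C before the stem were searched on the transcript strand. They were found in the 5′ untranslated regions of Slc40a1 (chr1:45925464-45925493, minus strand), Fth1 (chr19:9982732-9982761, plus strand) and Ftl1 (chr7:45459778-45459807, minus strand). Tfrc had 4 in its 3′ untranslated region (plus strand, chr16:32631219-32631248, chr16:32631598-32631627, chr16:32631663-32631692 and chr16:32631710-32631739). The windows of 30 bases are given 5′ to 3′ as DNA letters, with the loop in capitals.
Slc40a1: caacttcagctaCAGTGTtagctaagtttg
Fth1: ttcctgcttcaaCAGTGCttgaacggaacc
Ftl1: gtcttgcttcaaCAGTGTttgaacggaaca
Tfrc, element 1: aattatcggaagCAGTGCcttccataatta
Tfrc, element 2: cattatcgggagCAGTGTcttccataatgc
Tfrc, element 3: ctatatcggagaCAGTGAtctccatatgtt
Tfrc, element 4: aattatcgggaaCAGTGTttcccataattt
The windows of the ferritin chains shared 26 of 30 bases, that of Slc40a1 shared 13 with each of them, and the 4 Tfrc windows shared 18 to 25 with one another. Part of this sharing was fixed by the search, which required CAGTG in the loop and the C before the stem in every window. None of the other 5 members had a match in the transcript searched, and 294 of 21901 genes with a coding transcript (1.34%) had one somewhere in such a transcript. Of 6 genes listed for known elements near the start, the 3 members above included, 1 passed (q under 0.05) between the phases at E11.5, Slc40a1. It was lower in S/G2/M cells, where 0.564% of 12414 tested genes passed in that direction. In the authors' deposited table with these groups in reverse Slc40a1 did not pass (q = 0.0772). With age 2 of the 6, Slc40a1 and Epas1, were higher in E11.5 G1 cells and passed, where 3.0% of 12953 tested genes did. A match is a stretch of letters and no measurement of protein binding.

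**Figure D1:**
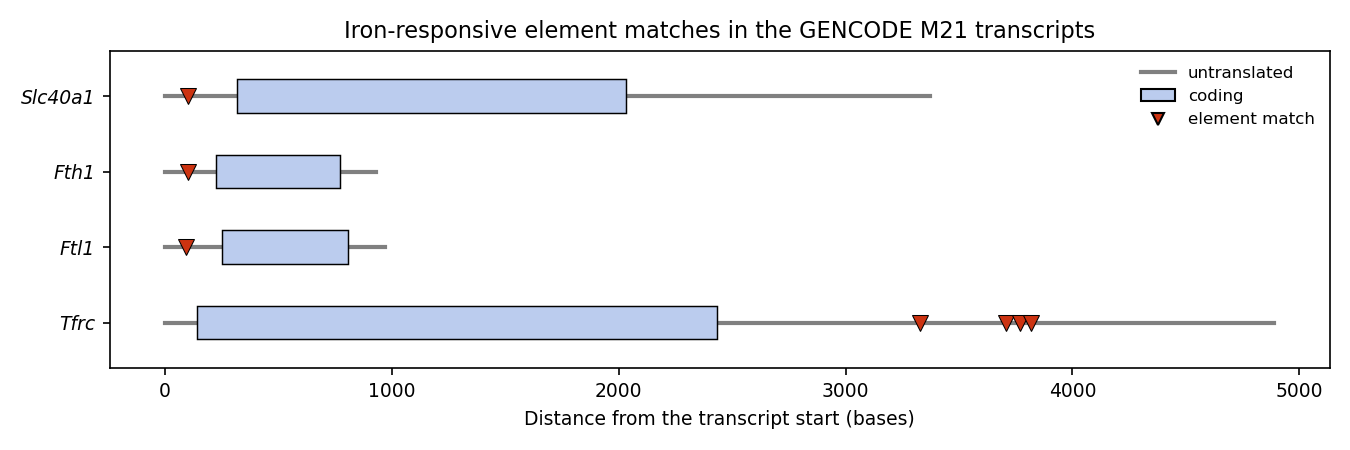
Transcripts of Slc40a1, Fth1, Ftl1 and Tfrc drawn to scale from their start (x axis, bases), with coding parts as boxes, untranslated parts as lines and matches to the iron-responsive element as triangles. The single matches of Slc40a1, Fth1 and Ftl1 lie before the coding part, and the 4 of Tfrc lie behind it.

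The values are the authors' group values in FPKM, fragments scaled to transcript length and library size, so they may be set side by side between genes. Each group has 1 value per gene, no spread between samples can be computed, and the depth is unknown. A gene is said to rise or fall where the authors' deposited table gives it a q-value under 0.05. Levels in all 4 groups are taken from the tables of phases, 1 for each age, and folds between ages from the tables of ages. The tables were normalised separately. Over genes with at least 5 FPKM, the median ratio of the phase table's value to the age table's was 0.961 for E11.5 S/G2/M, 0.988 for E11.5 G1, 1.01 for E10.5 S/G2/M and 1.05 for E10.5 G1 cells. Of the genes of the sorted surface markers, Pecam1 (CD31) had 69.9 FPKM in E11.5 S/G2/M, 111 in E11.5 G1, 30.2 in E10.5 S/G2/M and 39.8 in E10.5 G1 cells. Kit (CD117) had 28.9, 16.9, 12.7 and 15.1 FPKM in the same order. Fut4, an enzyme that makes the SSEA-1 sugar, stayed between 1.88 and 3.98 FPKM.

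The genes of haem breakdown and iron release were highest in G1 cells at E11.5. Hmox1, Slc40a1, Blvrb and Slc11a1 rose with age in G1 cells, 4.29-fold to 14.0-fold, and Hmox1 and Slc40a1 were lower in S/G2/M than in G1 cells at E11.5, which passed. In the authors' deposited table with these groups in reverse, Slc40a1 did not pass (q = 0.0772) and Tfrc did (q = 0.0463). At E10.5 no member passed between the phases, where 0.655% of all tested genes did. With age none passed in S/G2/M cells, where 2.14% of all tested genes rose and 1.93% fell. Tfrc, the uptake receptor, was the single member whose value with age was lower in S/G2/M cells (12.3 FPKM at E11.5 and 19.4 FPKM at E10.5) and higher in G1 cells (32.9 and 21.6 FPKM). Neither of its differences with age passed.

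**Figure D2:**
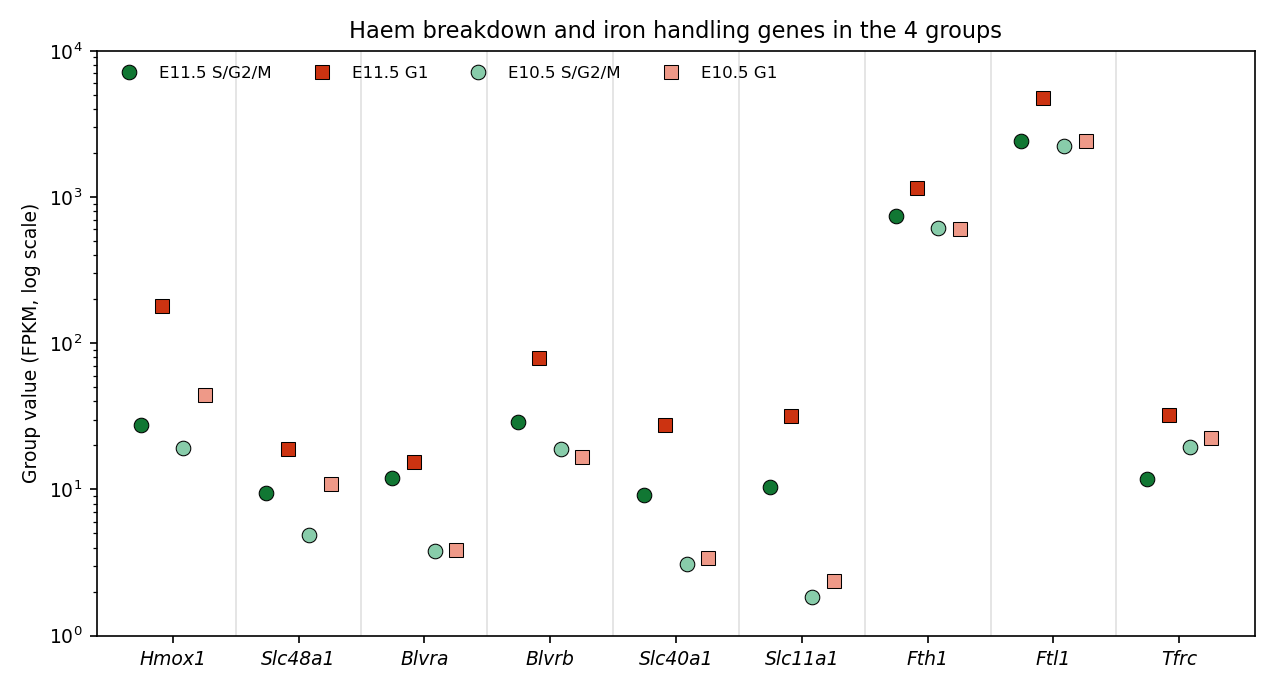
Group values of the 9 genes (y axis, FPKM on a log scale) in the 4 groups, 1 point per group with no error, since the tables hold 1 value for 3 samples. The E11.5 G1 point is the highest of the 4 for each gene, from 15.5 FPKM for Blvra to 4732 FPKM for Ftl1.

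Hmox1 encodes the inducible haem oxygenase and lies on chromosome 8 (75093618 to 75100593, mm10, as the other positions). It had 27.8 FPKM in S/G2/M cells and 179 FPKM in G1 cells at E11.5, and 19.2 FPKM in S/G2/M cells and 44.0 FPKM in G1 cells at E10.5. G1 cells held more than S/G2/M cells at both ages, and E11.5 G1 cells stood well above the other groups. At E11.5 the level in S/G2/M cells was 6.44-fold lower (log2 -2.69, q = 0.0102 in the authors' deposited table), which is the smallest q in that table, shared by other genes. At E10.5 the log2 difference of -1.20 had an unadjusted p of 0.0051 in the authors' deposited table and a q of 0.309, so it did not pass. With age Hmox1 rose 4.29-fold in G1 cells (181 FPKM at E11.5 and 42.2 FPKM at E10.5), whereas S/G2/M cells had 29.0 FPKM at E11.5 and 18.9 FPKM at E10.5 without passing. Whether the gap between phases differed by age was not tested, since that needs values per sample.

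Slc48a1 encodes a carrier that brings haem out of the endolysosome. Its values were 9.43 FPKM in S/G2/M and 18.8 FPKM in G1 cells at E11.5, and 4.85 FPKM in S/G2/M and 10.9 FPKM in G1 cells at E10.5. G1 values were about 2-fold those of S/G2/M cells at each age (1.99-fold and 2.25-fold), but no comparison passed, and the lowest q in the authors' deposited tables was 0.697. The deposited locus of Slc48a1 on chromosome 15 (97784365 to 97844502) is the same span as that of Hdac7 on the opposite strand, and the 2 genes meet at their 3′ ends. In RefSeq Slc48a1 spans 97784365 to 97792692 and Hdac7 spans 97792661 to 97844502, so the stretch they share there is short. Reads from that stretch cannot be told apart without strand, which the sources used here do not give.

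Blvrb, on chromosome 7 (27447978 to 27465981), encodes the reductase known in the mouse and human as flavin reductase. It had 28.8 FPKM in S/G2/M and 79.0 FPKM in G1 cells at E11.5, and 19.0 FPKM in S/G2/M and 16.7 FPKM in G1 cells at E10.5. The groups of E10.5 lay close together, and E11.5 G1 cells stood apart from all others. Blvrb rose 5.04-fold with age in G1 cells (q = 0.0132 in the authors' deposited table), and its 2.74-fold lower level in S/G2/M cells at E11.5 had an unadjusted p of 0.00605 and q = 0.270 by the authors' deposited table. Blvra, on chromosome 2 (127070657 to 127097084), encodes the main adult biliverdin reductase. It had 12 FPKM in S/G2/M and 15.5 FPKM in G1 cells at E11.5, and 3.81 FPKM in S/G2/M and 3.83 FPKM in G1 cells at E10.5. Its 2 values at E11.5 exceeded its 2 values at E10.5, by 3.33-fold in S/G2/M cells and 4.27-fold in G1 cells, without passing (q of 0.424 and 0.296 in the authors' deposited tables). At E10.5 Blvrb had more FPKM than Blvra in each phase, and at E11.5 as well.

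Slc40a1 encodes ferroportin, the iron exporter, and lies on chromosome 1 (45908070 to 45925594). It had 9.15 FPKM in S/G2/M and 27.7 FPKM in G1 cells at E11.5, and 3.11 FPKM in S/G2/M and 3.41 FPKM in G1 cells at E10.5. The phases were 1.10-fold apart at E10.5 and 3.03-fold apart at E11.5, where S/G2/M cells were lower (log2 -1.60, q = 0.0310 in the authors' deposited table). This call depended on the table. The authors' deposited table that lists these groups in reverse gave Slc40a1 9.17 FPKM in S/G2/M and 28.3 FPKM in G1 cells, and a q of 0.0772. With age it rose 8.56-fold in G1 cells, to 28.0 FPKM at E11.5 against 3.28 FPKM at E10.5 (q = 0.00273 in the authors' deposited table). In S/G2/M cells the values were 9.54 FPKM at E11.5 and 3.09 FPKM at E10.5, with q = 0.149 by the authors' deposited table.

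Slc11a1 encodes Nramp1, a transporter that moves iron and manganese out of the phagosome and is known from resistance to intracellular bacteria. It lies on chromosome 1 as well (74375203 to 74386051). Its values were 10.3 FPKM in S/G2/M and 31.6 FPKM in G1 cells at E11.5, and 1.85 FPKM in S/G2/M and 2.38 FPKM in G1 cells at E10.5, where it was the lowest member in each phase. The order of the 4 groups was that of Slc40a1. In G1 cells Slc11a1 rose 14.0-fold with age, the largest fold among the 9 genes in the 4 comparisons (q = 0.0146 in the authors' deposited table). Its 5.86-fold higher level at E11.5 in S/G2/M cells (q = 0.166) and 3.07-fold lower level in S/G2/M cells at E11.5 (q = 0.355) did not pass in the authors' deposited tables.

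The ferritin chains were the most abundant members. Ftl1, the light chain on chromosome 7 (45457944 to 45459886), had 2410 FPKM in S/G2/M and 4732 FPKM in G1 cells at E11.5, and 2227 FPKM in S/G2/M and 2423 FPKM in G1 cells at E10.5. In E11.5 G1 cells it ranked 6th of 24138 genes from the highest, and it ranked 32nd to 43rd in the other groups. Fth1, the heavy chain that oxidises iron, on chromosome 19 (9980600 to 9985111), had 737 FPKM in S/G2/M and 1145 FPKM in G1 cells at E11.5, and 615 FPKM in S/G2/M and 601 FPKM in G1 cells at E10.5. For each chain 3 groups lay close together and E11.5 G1 cells were higher. The age folds in G1 cells were 2.06 for Ftl1 and 2.01 for Fth1, with q of 0.0828 and 0.0741 in the authors' deposited table, which the authors marked as significant and which miss 0.05. Light chain exceeded heavy chain by 3.27-fold in S/G2/M and 4.13-fold in G1 cells at E11.5, and by 3.62-fold in S/G2/M and 4.03-fold in G1 cells at E10.5, as ratios of FPKM. The mouse genome holds processed copies of the ferritin genes, and how reads shared with them were counted is not given, so these levels are uncertain.

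Tfrc, the transferrin receptor on chromosome 16 (32608896 to 32632794), had 11.9 FPKM in S/G2/M and 32.5 FPKM in G1 cells at E11.5, and 19.5 FPKM in S/G2/M and 22.6 FPKM in G1 cells at E10.5. Here S/G2/M cells at E11.5 were the lowest group, whereas the other 8 genes had their lowest value at E10.5. The 2.74-fold lower level in S/G2/M cells at E11.5 had q = 0.0650 by the authors' deposited table, which they marked as significant. The authors' deposited table with the groups in reverse gave it a q of 0.0463, with 11.7 FPKM in S/G2/M and 33.3 FPKM in G1 cells. The call of Tfrc thus depended on which of the 2 tables is read. With age the log2 difference was -0.66 in S/G2/M cells (unadjusted p = 0.0527) and 0.61 in G1 cells (p = 0.102) in the authors' deposited tables.

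**Figure D3:**
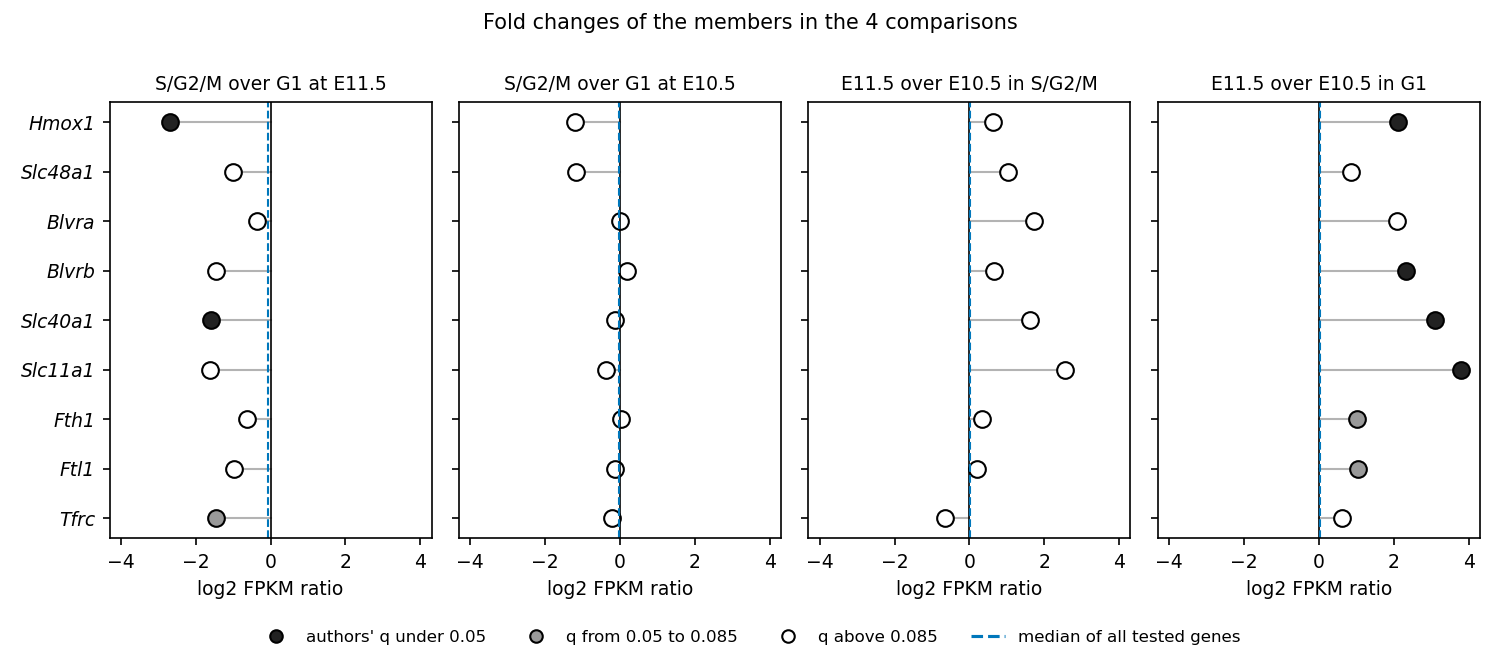
Log2 ratios of the group values for each gene (x axis) in the 4 comparisons, with filled points for q under 0.05 in the authors' deposited tables, grey points for q from 0.05 to 0.085, open points above and a dashed line at the median of all tested genes. All 9 points lie left of 0 for the phases at E11.5 and right of 0 for age in G1 cells, with Slc11a1 at 3.81.

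Between the phases at E11.5, 2 of the 9 genes fell in S/G2/M cells, where 0.564% of 12414 tested genes did. The median log2 difference of the 9 was -1.45, against -0.06 over all tested genes. With Tfrc, 3 carried the authors' own mark in that direction, where 0.685% of tested genes did. At E10.5 none of the 9 passed, where 0.655% of 12984 genes passed in either direction. Before adjustment 1 of the 9 had p under 0.05 in the authors' deposited Cuffdiff table, as did 868 of the 12984 genes. The median there was -0.13, against -0.04 over all genes.

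With age in G1 cells 4 of the 9 rose, where 3.0% of 12953 tested genes did, and the median log2 difference was 2.10, against 0.02 over all tested genes. With both ferritin chains, 6 carried the authors' mark of a rise, where 3.94% of tested genes did. In S/G2/M cells 0 of 9 passed in the authors' deposited Cuffdiff table. Before adjustment Slc40a1 and Slc11a1 (2 of 9) had p under 0.05 in it, as did 1773 of 12768 tested genes. The median was 0.66, against 0.03. There 2.14% of 12768 genes rose and 1.93% fell. The comparisons of phases at E11.5 and of ages in G1 share the 3 samples of E11.5 G1 cells, so their counts are not independent of each other.

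Other genes of the pathway are given by list, beside the 0.564% of all tested genes that fell in S/G2/M cells at E11.5 and the 3.0% that rose with age in G1 cells. Between the phases at E10.5, 0.655% passed in either direction, and with age in S/G2/M cells 2.14% rose and 1.93% fell. Before adjustment, p in the authors' deposited Cuffdiff tables was under 0.05 for 1027 of 12414 tested genes between the phases at E11.5. It was so for 868 of 12984 at E10.5, and with age for 1773 of 12768 in S/G2/M and 2001 of 12953 in G1 cells. Of 11 genes of haem release and transport, Lrp1, the receptor that takes up haemopexin-bound haem, fell in S/G2/M cells at E11.5 (10.1 FPKM in S/G2/M and 32.0 FPKM in G1 cells) and rose in G1 cells with age, 2.82-fold. It was the single one of 9 tested to pass in either comparison, the list medians were -0.42 and 0.95, and none passed in the 2 others, where 0 and 2 had p under 0.05 before adjustment in the authors' deposited Cuffdiff tables. Hmox2, the constitutive haem oxygenase, had 23.3 FPKM in S/G2/M and 29.4 FPKM in G1 cells at E11.5, and 15.9 FPKM in S/G2/M and 21.6 FPKM in G1 cells at E10.5, with no comparison passed. Hmox1 exceeded Hmox2 in FPKM in each group, least in S/G2/M cells and most in E11.5 G1 cells. Abcg2, a porphyrin and haem exporter, had 40.3 and 39.8 FPKM in S/G2/M and G1 cells at E11.5 and did not pass either.

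Of 12 genes of iron uptake, Trf was the single one that passed, among 10 tested for the phases at E11.5 and for age in G1 cells. It encodes transferrin, the iron carrier that Tfrc binds. Trf fell in S/G2/M cells at E11.5, with 13.4 FPKM against 44.4 FPKM in G1 cells, and rose 5.53-fold with age in G1 cells (q of 0.0242 and 0.0146 in the authors' deposited tables). The list medians were -0.47 and 1.0. Of 9 tested in each of the other comparisons none passed, with 0 for the phases at E10.5 and 3 for age in S/G2/M cells at p under 0.05 before adjustment in the authors' deposited Cuffdiff tables. Slc11a2, the endosomal iron transporter related to Slc11a1, had 7.03 FPKM in S/G2/M and 9.75 FPKM in G1 cells at E11.5, and 15.1 FPKM in S/G2/M and 10.53 FPKM in G1 cells at E10.5, without passing. Its values at E11.5 lay below those at E10.5 in each phase, the opposite order to Slc11a1.

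Of 13 regulators of iron and haem genes, 3 of 12 tested rose with age in G1 cells, where 3.0% of all tested genes did, and none fell. The list median was 0.21, against 0.02 over all tested genes. Nfe2l2, which encodes the activator Nrf2 of the Hmox1 gene, rose 2.42-fold (83.1 FPKM at E11.5 and 34.4 FPKM at E10.5). Bach1, which encodes a haem-sensing repressor of Hmox1, rose 2.46-fold (16.3 FPKM at E11.5 and 6.61 FPKM at E10.5), and Epas1, a hypoxia-inducible factor, rose 2.94-fold (39.0 FPKM at E11.5 and 13.2 FPKM at E10.5). No regulator passed in the other comparisons, where 2 to 5 had p under 0.05 before adjustment in the authors' deposited Cuffdiff tables. The iron regulatory protein genes Aco1 and Ireb2 had 5.23 and 18.4 FPKM in S/G2/M cells and 10.9 and 18.0 FPKM in G1 cells at E11.5. Spic, a transcription factor of iron-recycling macrophages in the adult spleen, was listed at 0 in 3 groups and had 0.0624 FPKM in E11.5 G1 cells.

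Of 7 genes of iron storage and release none passed in any comparison, with 4 or 5 tested, and 0 or 1 had p under 0.05 before adjustment in the authors' deposited Cuffdiff tables. Ncoa4, the receptor that delivers ferritin for breakdown, had 43.5 FPKM in S/G2/M and 58.9 FPKM in G1 cells at E11.5. Pcbp1, a chaperone that loads iron into ferritin, had 234 FPKM in S/G2/M and 208 FPKM in G1 cells, and its relative Pcbp2 had 69.2 and 89.4 FPKM. The hormone gene Hamp, whose product hepcidin removes ferroportin from the cell surface, and the mitochondrial ferritin gene Ftmt were listed at 0 in all 4 groups.

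**Figure D4:**
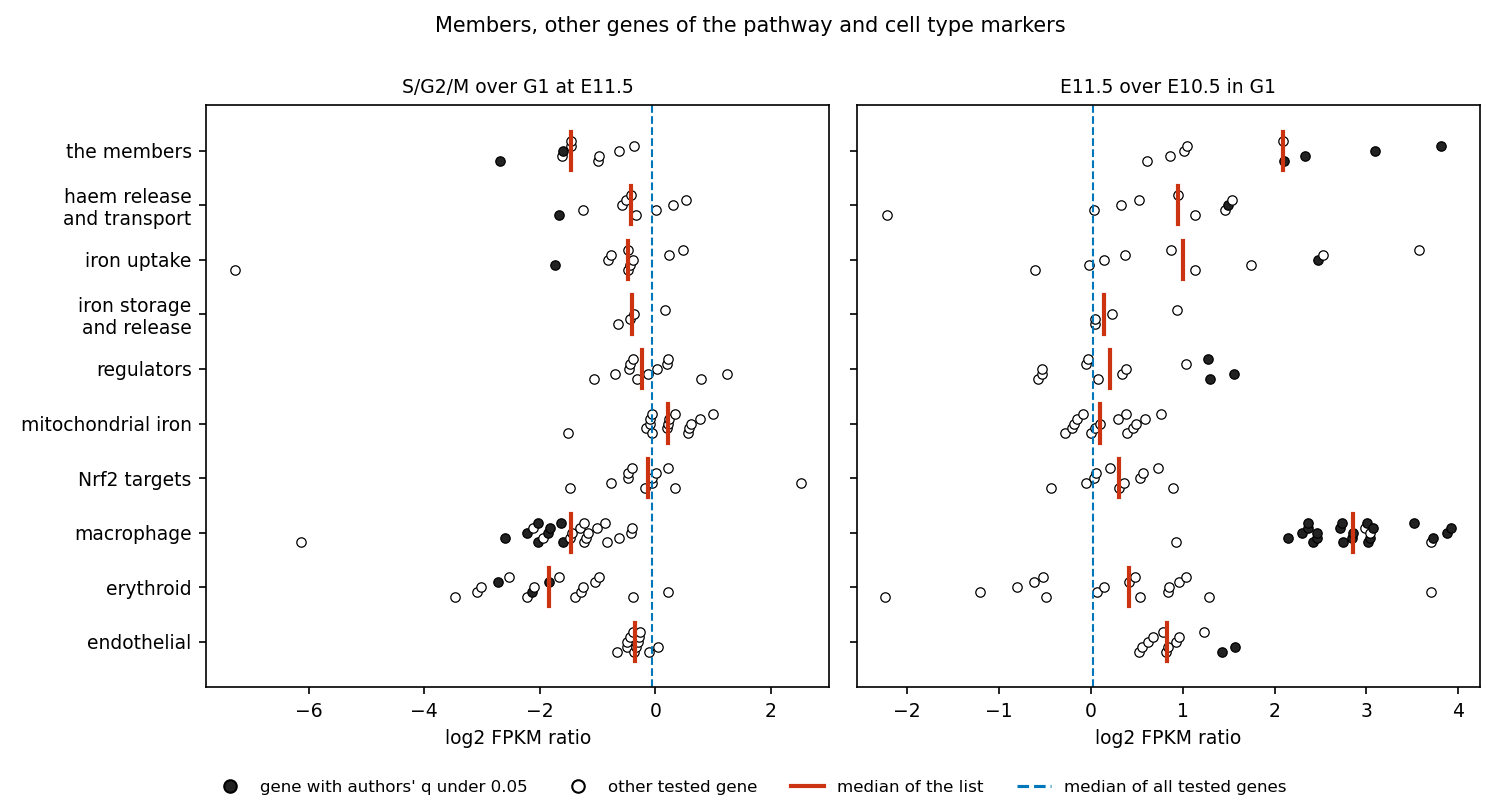
Log2 ratios (x axis) of single genes by list for the phases at E11.5 and for age in G1 cells, with filled points for q under 0.05 in the authors' deposited tables, a bar at each list's median and a dashed line at the median of all tested genes. In both panels the macrophage markers and the 9 members lie to the same side, with medians of -1.46 and -1.45 for the phases and 2.85 and 2.10 for age, while the erythroid markers do so for the phases (-1.85) and lie nearer 0 for age (0.42). The endothelial medians (-0.35 for the phases and 0.83 for age) lie on the members' side in both panels as well.

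Markers of macrophages lay in the direction of the members for the phases at E11.5 and for age in G1 cells. Of 24 macrophage markers, 8 fell in S/G2/M cells at E11.5 (median -1.46), where 0.564% of all tested genes did. With age in G1 cells 20 rose (median 2.85), where 3.0% of all tested genes did. With age in S/G2/M cells 12 of 23 tested rose (median 1.97), where 2.14% of all tested genes did. None of the members passed there (median 0.66). None of 23 passed between the phases at E10.5, where 21 had lower values in S/G2/M cells and 2 higher ones. The median was -0.65, where the members had -0.13. Before adjustment 6 of the 23 had p under 0.05 in the authors' deposited Cuffdiff table, as did 868 of 12984 tested genes. The summed level of the 24 markers was 1915 FPKM in S/G2/M and 4901 FPKM in G1 cells at E11.5. At E10.5 it was 545 FPKM in S/G2/M and 821 FPKM in G1 cells, and no marker was at 0 in any group. Csf1r, the receptor for the macrophage growth factor, had 73.5 FPKM in S/G2/M and 228 FPKM in G1 cells at E11.5, and 18.7 FPKM in S/G2/M and 29.4 FPKM in G1 cells at E10.5. Cd68, a lysosomal protein of macrophages, had 39.9 FPKM in S/G2/M and 186 FPKM in G1 cells at E11.5, and 18.4 FPKM in S/G2/M and 37.0 FPKM in G1 cells at E10.5. Both had the 4 groups in the order of Slc40a1, with E11.5 G1 cells highest and E10.5 S/G2/M cells lowest. Some of these genes, such as Ptprc, Spi1 and Itgam, are also known from other blood cells. Cd163, which encodes the macrophage receptor for haemoglobin bound to haptoglobin, was listed at 0 in 3 groups and had 0.0203 FPKM in E11.5 G1 cells. The part of macrophages in the differences of the members was not tested, and in sorted bulk samples fewer cells of a type and less RNA per cell cannot be told apart.

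Markers of red cells followed another course. Their summed level over 19 genes was 3147 FPKM in S/G2/M and 12297 FPKM in G1 cells at E11.5, and 19631 FPKM in S/G2/M and 15451 FPKM in G1 cells at E10.5, with Tspo2 at 0 throughout. Most of each sum came from the globins Hba-x, Hbb-y and Hbb-bh1 (10167.5, 5858 and 3127 FPKM in E10.5 S/G2/M cells). With age in S/G2/M cells 15 of 17 tested markers had lower values and 2, Hbb-b2 and Epor, had higher ones. Hba-x, Hba-a2 and Hbb-bh1, 3 of 17 tested, fell in S/G2/M cells at E11.5 (median -1.85), where 0.564% of all tested genes did. Hba-a2, Hbb-bh1 and Slc4a1 fell with age in S/G2/M cells (median -2.38), where 1.93% of all tested genes did. Globin genes share sequence, so single globins are uncertain. None of the red cell markers passed for the phases at E10.5 (median 0.44) or for age in G1 cells (median 0.42). At E10.5, 15 of 18 tested had higher values in S/G2/M cells. Before adjustment 0 and 2 had p under 0.05 in the authors' deposited Cuffdiff tables, as did 868 of 12984 and 2001 of 12953 tested genes. Slc4a1, the anion exchanger of red cells, had 3.70 FPKM in S/G2/M and 15.8 FPKM in G1 cells at E11.5, and 16.1 FPKM in S/G2/M and 15.2 FPKM in G1 cells at E10.5. As with Tfrc, its lowest value was that of E11.5 S/G2/M cells, and the part of red cells in the values of Tfrc was not tested.

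Of 12 endothelial markers, Pecam1 and Robo4 rose with age in G1 cells (list median 0.83), where 3.0% of all tested genes did. Pecam1, Tie1 and Robo4 rose in S/G2/M cells (list median 0.998), where 2.14% of all tested genes did. None passed between the phases at either age. Values were lower in S/G2/M cells for 11 of 12 at E11.5 (median -0.35) and for 12 of 12 at E10.5 (median -0.40). With age all 12 were higher in G1 cells. Before adjustment 0 of the 12 at E11.5 and 2 at E10.5 had p under 0.05 in the authors' deposited Cuffdiff tables. Over all tested genes 1027 of 12414 and 868 of 12984 did. At E10.5, where Hmox1 did not pass, 6 of 8 neural markers fell in S/G2/M cells, where 60 of 12984 tested genes fell. The summed levels of the 8 markers were 98.7 FPKM in S/G2/M and 353 FPKM in G1 cells. The part of neural cells in the E10.5 G1 values was not tested. Whether the sort for CD31 and CD117 left neural cells in the samples was not tested. At E11.5 all 7 neural markers tested had lower values in S/G2/M cells, as the 9 members did, with a median of -1.08 and summed levels over the 8 markers of 78.1 FPKM in S/G2/M and 142 FPKM in G1 cells. Of these 7, Ncan passed, where 0.564% of all tested genes fell. Before adjustment 5 of the 7 neural markers had p under 0.05 in the authors' deposited Cuffdiff table, where 1027 of 12414 tested genes had. Their part in the result was not tested. With age in G1 cells Tubb3 and Dcx fell (median of the list -1.11), opposite to the members, where 188 of 12953 tested genes fell. In S/G2/M cells none of 8 passed or had p under 0.05 before adjustment in the authors' deposited Cuffdiff table. Such a p was found for 1773 of 12768 tested genes there.

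The genes most like Hmox1, Slc40a1 and Tfrc over the 4 groups were found by the root mean square difference of log2 values, each taken from the gene's own mean, among 9875 genes above 0 in all groups and above 5 FPKM in at least 1. With 4 values per gene this is a coarse description. For Hmox1 they were Preb (0.13), the macrophage gene Cd68 (0.28), Fahd2a (0.29), Gas6 (0.31), a ligand of receptors for dying cells, and its receptor gene Axl (0.32). For Slc40a1 they were Myo1f (0.07), Gnpda1 (0.07), the chemokine receptor gene Cx3cr1 (0.11), Lipe (0.12) and Apobec1 (0.12). For Tfrc they were Tmem243 (0.07), Reep6 (0.11), Plxnb2 (0.11), Ppp4c (0.11) and Tanc2 (0.11). Cx3cr1 had 37.2 FPKM in S/G2/M and 112 FPKM in G1 cells at E11.5, and 13.2 FPKM in S/G2/M and 16.6 FPKM in G1 cells at E10.5.

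Start site windows of RefSeq (GRCm38.p6), from 250 bases before to 50 bases after the start, were matched for 6 members, Blvra, Blvrb, Fth1, Ftl1, Slc11a1 and Tfrc, with 9 windows in all. The core of the antioxidant response element that Nrf2 binds, TGACNNNGC on either strand, occurred in the window of Blvra and in none of the other 8, against 12.4% of all 32851 windows. The Maf recognition element, which overlaps this core, was in none of the 9 windows (0.155% of all windows). The loop CAGTGN, sought on the gene's strand downstream of the start, was in none of the 9 either (7.08% of all windows). These windows say nothing of regions farther from the start, where the element matches printed above for Fth1, Ftl1 and Tfrc lie.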

How the data were processed

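RNA of 12 sorted samples was measured by sequencing. The submitters' processing notes list Cuffdiff, TopHat, CASAVA 1.4 and mm10, whereas the labels' protocols name bowtie 0.12.2 and mm8. Of 22763 symbols matched to RefSeq on GRCm38, 22438 loci overlapped, so positions are mm10, and 1 was added to deposited starts. Per the file headers the authors deposited FPKM, 1 value per gene and group, beside the p-value and q-value of their test. No column holds a single sample, so depth and replicate spread are unknown. It is not stated how that test used the 3 samples of a group, and the labels do not say that they came from separate litters, so the p-values may measure technical spread. Benjamini-Hochberg adjustment of the p-values over tested genes gave the deposited q-values within 5.27e-07.

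Ratios were computed here without a pseudocount, with S/G2/M over G1 and E11.5 over E10.5, and calls use the authors' q under 0.05. For tables of group values no new test was run. The design named proteins to print, which are not used here, and a Maf recognition element, which none of the 9 member windows held. The members, the gene lists and the rule for named genes were chosen with earlier results of these data known. The rule takes all members, up to 4 list genes that passed, by size, or else the 2 most abundant, 13 fixed markers and the 5 genes most alike, and not every gene it takes is printed. Hmox2, Abcg2, Slc11a2, Aco1, Ireb2, Spic, Cd163, Ncoa4, Hamp, Ftmt, Slc25a37, Slc4a1 and Fut4 lie outside it or were added for their role after their values were seen. List genes without a row are not analysed here. The calculations were tested on simulated data. Python 3.11.15, numpy 2.4.6 and matplotlib 3.10.9 were used.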

Additional observations from a re-analysis of the deposited data

How the results depend on the processing

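Calls were repeated with q under 0.085, q under 0.01, a log2 fold of at least 1, a minimum of 5 FPKM in the higher group and, between phases, the tables that list the groups in reverse. Counts of members passed stayed within 1.5 times under these settings, except that at 0.01 the 2 for the phases at E11.5 became 0, because the smallest q there is 0.0102, and the 4 for age in G1 cells became 2 (Hmox1 and Slc40a1). In the reversed table the E11.5 count was again 2, but 1 gene, Hmox1, was shared with the table used, and Tfrc passed in place of Slc40a1. The log2 values kept their direction with FPKM + 1 (36 of 36, moving by at most 0.50), with sums over the rows of a symbol (36 of 36) and with scaling to the median of all genes (35 of 36), and in the reversed tables (17 of 18). The single exception in each was Blvra at E10.5, which turned to 0.0135 with scaling and to 0.00033 in the reversed table; at -0.01 as deposited it was near 0. No paired analysis was possible because the tables hold no values per sample, and for the same reason no replicate could be left out. The unknown depth limits what can be said of Slc11a1, Slc40a1 and Blvra at E10.5, all under 4 FPKM.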

Other observations

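Genes of mitochondrial iron use, which build iron-sulphur clusters and import iron, gave no call. None of the 15 tested passed in any of the 4 comparisons, with 0 or 1 of them under p = 0.05 before adjustment in the authors' deposited Cuffdiff tables. Over all tested genes, 17 rose and 70 fell of 12414 in S/G2/M cells at E11.5, and 0.655% passed between the phases at E10.5. With age 2.14% rose and 1.93% fell in S/G2/M cells, and 389 rose and 188 fell of 12953 in G1 cells. Before adjustment 868 of 12984 to 2001 of 12953 had such a p. With shares as low as these, 0 of 15 says little of these genes. Their summed level was 629 FPKM in S/G2/M and 497 FPKM in G1 cells at E11.5, and 626 FPKM in S/G2/M and 525 FPKM in G1 cells at E10.5, with list medians of 0.22 and 0.29 for the phases at E11.5 and E10.5, and of 0.15 and 0.10 for age in S/G2/M and in G1 cells. How this list differs from the members was not tested. Slc25a37, the mitochondrial iron importer mitoferrin of red cell precursors, had 6.12 FPKM in S/G2/M and 17.4 FPKM in G1 cells at E11.5, and 16.5 FPKM in S/G2/M and 12.3 FPKM in G1 cells at E10.5, so that its highest and lowest groups were those of Tfrc. Its log2 difference between the phases at E11.5 was -1.51, with p = 0.00225 before adjustment and q = 0.167 in the authors' deposited table, so it did not pass, in the direction of the members.

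Other genes known as targets of Nrf2 did not pass either, among 11 to 13 tested per comparison, with 0 or 1 under p = 0.05 before adjustment in the authors' deposited Cuffdiff tables. Beside the shares over all tested genes given for mitochondrial iron use, this says little of these targets. Their list medians were -0.12 for the phases at E11.5 and 0.31 for age in G1 cells, where Hmox1 had -2.69 and 2.10. How Hmox1 differs from this list, and the part of Nrf2 in it, was not tested. Prdx1, a peroxiredoxin and the most abundant of them, had 237 FPKM in S/G2/M and 330 FPKM in G1 cells at E11.5.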
